A study of Danio rerio with 13 samples.

Results

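The 10 zebrafish livers described here were those of the 13 sequenced livers in which apoea, an apolipoprotein gene (ENSDARG00000102004), stood below 100 CPM, the count scaled by the total of its library. They comprised 4 wildtype livers carrying 2 functional tert copies, 4 tert(+/-) livers carrying 1 copy and 2 tert(-/-) livers carrying none. The set was chosen with the apoea level itself, so that level is a description. The highest apoea value among the kept livers was 2.148 CPM and the lowest among the 3 livers left out (wildtype 5, tert(+/-) 3 and tert(-/-) 1) was 11860 CPM. Of the 10, wildtype 1 and tert(+/-) 5 carried the cardiac myosin gene MYH7 (ENSDARG00000079782) above 100 CPM, at 4123 and 3039 CPM, against at most 1.949 CPM in the other 8. These libraries are called heart-marked, and the results are given with and without them.

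The study used a zebrafish line with a nonsense mutation in tert (allele hu3430) and sequenced RNA of several tissues, here the liver of male fish aged 3 months. Fish of all 3 genotypes are labelled AB strain, and the mutants carry 1 or 2 copies of the same allele. The labels number each liver but name no family, clutch or batch, so the p-values measure the spread between these livers only. The comparison asked how RNA levels in the liver follow the number of functional tert copies.

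Telomerase extends chromosome ends, and tert encodes its reverse transcriptase subunit. In zebrafish, as in humans and unlike in laboratory mice, telomeres are short enough that loss of telomerase shortens life. The liver consists mainly of hepatocytes, which make plasma proteins, synthesise cholesterol and handle fatty acids, and few of its cells divide in the adult. In bulk RNA, fewer cells of a type and less RNA per cell cannot be told apart.

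Total counts per library ran from 17801374 to 37309651. The 13 mitochondrially encoded genes took 54.65% of counts in wildtype 4 and 32.83% in tert(-/-) 2, against 7.926% to 14.4% in the other 8 livers. Heart muscle genes took 1.171% of counts in wildtype 1 and 0.9836% in tert(+/-) 5. Every pair of the 10 libraries differed by far more than sampling noise (45 pairs, lowest chi-square per degree of freedom 86.14), so each was counted as a separate sample. The plot of marker shares shows these libraries apart from the rest.

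**Figure D1:**
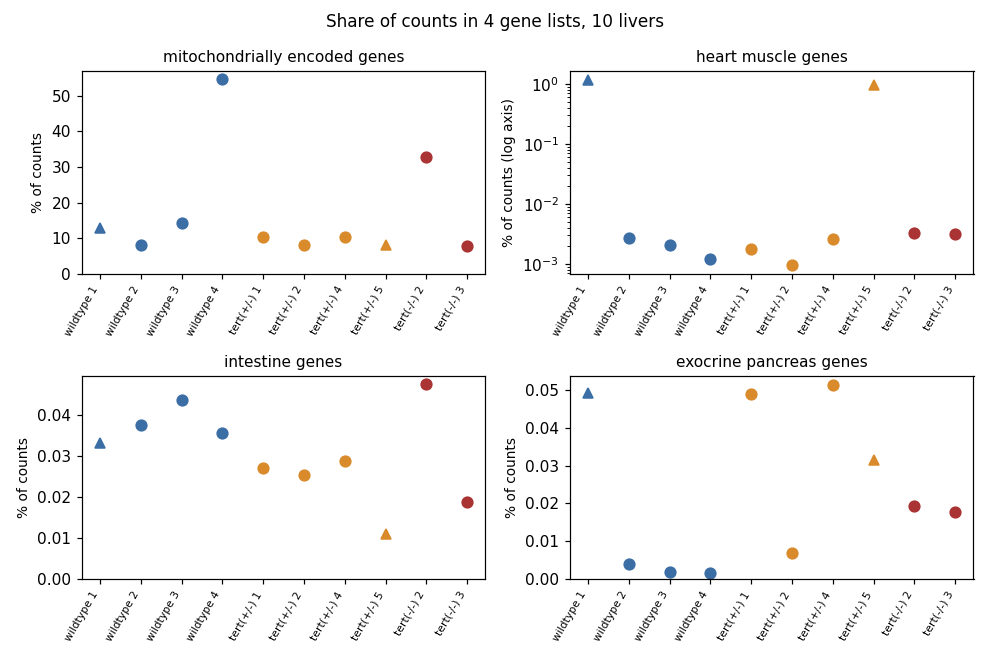
Share of each library's counts (vertical axis, percent, log scale for heart muscle genes) in 4 gene lists, with 1 point per liver, blue for wildtype, orange for tert(+/-) and red for tert(-/-). Triangles are the 2 heart-marked libraries, which reach 1.171% and 0.9836% for heart muscle genes, and wildtype 4 reaches 54.65% for mitochondrially encoded genes.

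The transcript of tert itself (ENSDARG00000042637) was more abundant with fewer functional copies. Levels below are CPM after TMM scaling, a correction for library composition, and slopes are log2 changes per functional copy lost. The tert level was 1.95, 0.45, 0.63 and 2.29 CPM in wildtype livers 1 to 4. It was 3.03, 2.46, 3.23 and 2.46 CPM in tert(+/-) livers 1, 2, 4 and 5, and 5.42 and 3.71 CPM in tert(-/-) livers 2 and 3. Every tert(+/-) liver lay above every wildtype liver, and both tert(-/-) livers lay above all others. On log2(CPM + 0.5) the slope was 0.83 per copy lost, and a two-sided exact permutation test over 3150 assignments gave p = 0.00508 (smallest possible 0.000317). Without the heart-marked libraries the slope was 0.90 (exact permutation p = 0.0143). A nonsense allele still gives a countable transcript, so this level is no measure of telomerase activity and does not check the genotype labels. The 3 livers left out ran the opposite way, at 11.89 CPM in the wildtype liver, 10.15 in the tert(+/-) liver and 5.13 in the tert(-/-) liver.

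Across all genes, few passed a test of trend over tert copy number. Of 16219 genes tested with edgeR's quasi-likelihood test, 1 passed a Benjamini-Hochberg adjusted p of 0.05, which is 0.00617% of those tested. It was SLC5A11, described below. At an unadjusted p under 0.05 there were 348 genes (2.15%), of which 152 were higher with copies lost (0.937%) and 196 lower (1.21%). DESeq2 called 6 of the same 16219 genes (0.037%): BTD, GPR161, acot15, arf4b, ENSDARG00000074225, which has only a clone-based symbol, and ENSDARG00000097513, which has none. SLC5A11 was not among them, and limma-trend called none. The tert gene passed neither edgeR's test (adjusted p = 0.999) nor that of DESeq2 (adjusted p = 0.673). Its permutation test above was run because it is the targeted gene, and that p is not adjusted for the other genes. A slope above 0 was found for 46.6% of genes and below 0 for 53.4%, with a median of -0.02.

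Without the heart-marked libraries edgeR called 0 of 15057 genes (0%), with 434 at an unadjusted p under 0.05 (2.88%). Over these 8 livers 7705 slopes were above 0 and 7352 below, with a median of 0.006. DESeq2 called 6 there: BTD, acot15, THSD7B, ugt5c1, cela1.3 and lnc.425. Of the genes at an unadjusted p under 0.05, 203 were shared between the 10-liver and the 8-liver fits, 58.3% of the former and 46.8% of the latter. These fits share 8 livers. The common dispersion, a measure of spread between livers, was 0.3423 with the heart-marked libraries and 0.1984 without them.

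The genes named from here on are the 10 with the smallest p on either side of 0, among genes whose log2 CPM averaged 0 or more. They were picked by the trend, so their slopes describe them and are no independent evidence. All 20 kept their direction in the 8 livers, as the plot of slopes shows. Those 8 are among the 10 livers by which the genes were picked, so the kept direction is no independent evidence either.

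**Figure D2:**
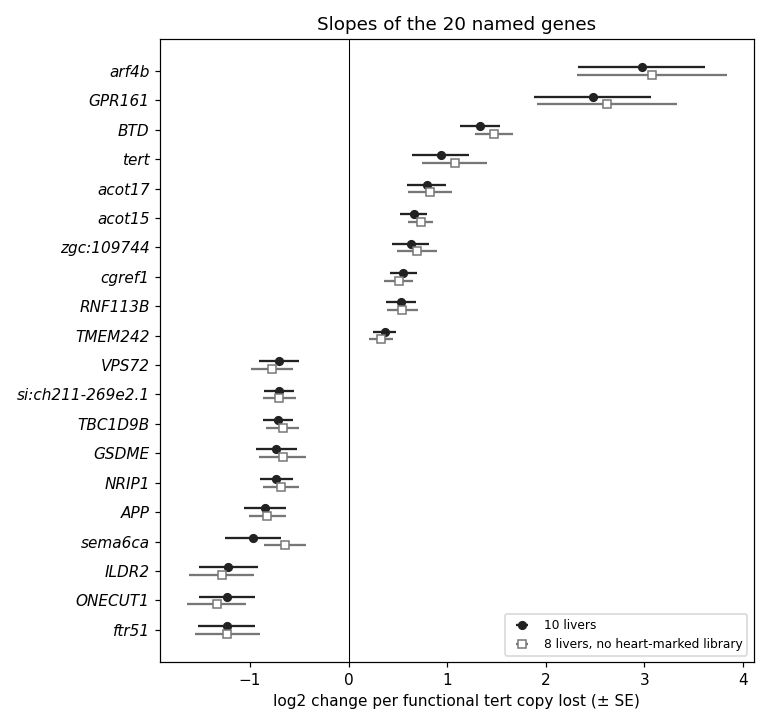
Slope of each of the 20 named genes (horizontal axis, log2 change per functional tert copy lost, bars are ± SE) over 10 livers (filled circles) and over 8 livers without the heart-marked libraries (open squares). All 20 keep their side of 0, and sema6ca moves most among the lower genes, from -0.97 to -0.64. The 8 livers are among the 10 by which the genes were picked.

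BTD (ENSDARG00000099596), which encodes biotinidase, the enzyme that frees the vitamin biotin from digested protein for reuse, had the clearest graded pattern. Its level was 5.41, 2.62, 3.94 and 2.02 CPM in wildtype livers 1 to 4. It was 8.19, 9.85, 7.19 and 10.33 CPM in tert(+/-) livers 1, 2, 4 and 5, and 13.68 and 30.85 CPM in tert(-/-) livers 2 and 3. The 3 genotypes did not overlap. The slope was 1.33 ± 0.20 (SE, n = 10) with an unadjusted edgeR p of 3.25e-05 and an adjusted p of 0.264. DESeq2 gave an adjusted p of 1.43e-05, so the call depended on the tool. The step from wildtype to tert(+/-) was 1.34 and that from tert(+/-) to tert(-/-) was 1.32 on the log2 scale, steps that share the tert(+/-) livers. In the 8 livers the slope was 1.48 (edgeR adjusted p = 0.127). The 3 livers left out had the same order, at 1.08 CPM in the wildtype liver, 7.18 in the tert(+/-) liver and 9.44 in the tert(-/-) liver.

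The other enzymes that use or attach biotin showed no such grading. Of 10 biotin enzyme genes tested, BTD included, 5 had a slope above 0 and 5 below, and the median was -0.01. The list was written with the BTD result known. PC, pyruvate carboxylase, had a slope of 0.16 ± 0.13 and ACACA, acetyl-CoA carboxylase, 0.25 ± 0.30. Without tert(-/-) 3 that of PC was 0.07, and without wildtype 1 that of ACACA was 0.13. Neither passed at an unadjusted p under 0.05, and BTD alone of the 10 did (10%, against 2.15% of all genes).

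The acyl-CoA thioesterase genes acot15 and acot17, whose enzymes split fatty acyl-CoA into free fatty acid and coenzyme A, were also graded. The level of acot15 was 39.31, 24.45, 31.16 and 34.11 CPM in wildtype livers 1 to 4. It was 58.74, 57.39, 52.77 and 33.005 CPM in tert(+/-) livers 1, 2, 4 and 5, and 83.77 and 77.68 CPM in tert(-/-) livers 2 and 3. Only the heart-marked tert(+/-) 5 fell inside the wildtype range. The slope was 0.66 ± 0.13 (edgeR adjusted p = 0.999, DESeq2 adjusted p = 0.0217), and in the 8 livers DESeq2 gave 0.00032.

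Levels of acot17 were far lower, at 0.89, 0.85, 0.84 and 0.37 CPM in wildtype livers 1 to 4. They were 1.34, 1.72, 1.53 and 1.14 CPM in tert(+/-) livers 1, 2, 4 and 5, and 2.27 and 2.10 CPM in tert(-/-) livers 2 and 3. The genotypes did not overlap. The slope was 0.79 ± 0.20, and it passed neither edgeR's test (adjusted p = 0.999) nor that of DESeq2 on the same genes (0.147). In the livers left out neither thioesterase kept the order: acot15 was 7.89, 26.73 and 6.19 CPM and acot17 1.198, 0.37 and 0.59 CPM in the wildtype, tert(+/-) and tert(-/-) liver.

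Separation of all 3 genotypes in copy order was found for 6 of the 16219 genes tested (0.037%), 5 higher with copies lost (0.0308%) and 1 lower (0.00617%). For a gene without ties, 1 of the 3150 assignments of these livers to the genotypes gives each of these orders, a share of 0.000317. Neither count exceeded that share of the genes tested. The higher ones were BTD, tert, acot17, znf970 and zgc:194285, and the lower one was TBC1D9B. TBC1D9B, which encodes a protein that switches off Rab GTPases in membrane traffic, stood at 4.12, 3.31, 3.21 and 3.85 CPM in wildtype livers 1 to 4. It stood at 2.90, 2.09, 2.54 and 1.602 CPM in tert(+/-) livers 1, 2, 4 and 5, and at 1.42 and 1.24 CPM in tert(-/-) livers 2 and 3. The slope was -0.71 ± 0.16 (edgeR adjusted p = 0.999, DESeq2 0.0624). The livers left out held 2.83, 1.57 and 2.80 CPM in the same genotype order, so the lowest there was the tert(+/-) liver.

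**Figure D3:**
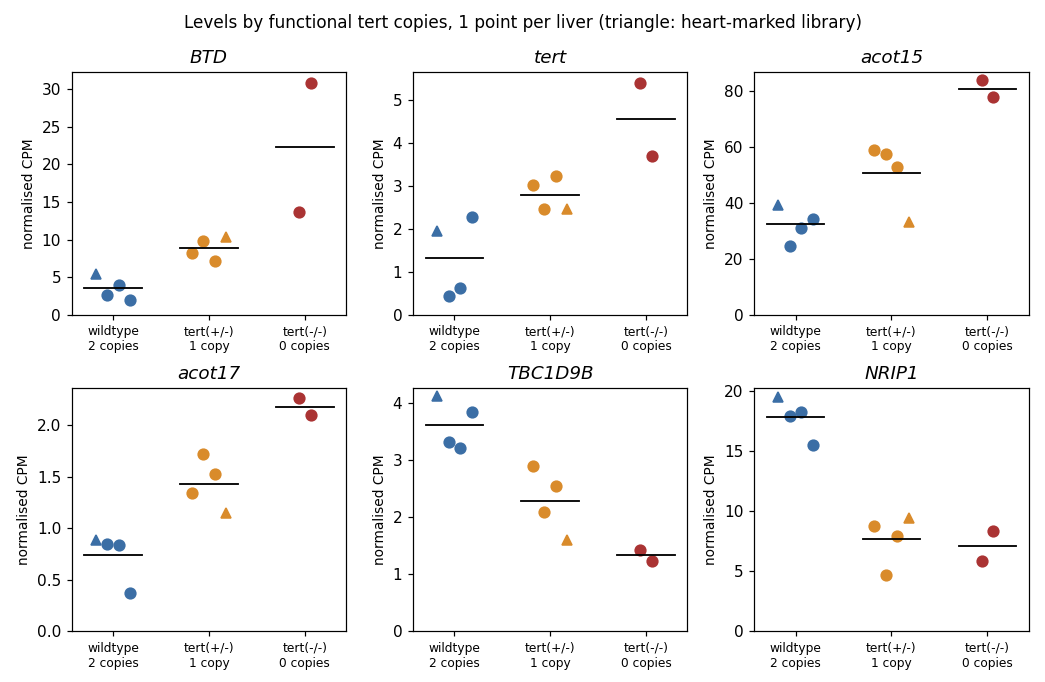
TMM-normalised CPM (vertical axis, from 0) of 6 named genes by genotype (horizontal axis), with 1 point per liver, triangles for the heart-marked libraries and bars for the group means. The genotypes do not overlap for BTD, tert, acot17 and TBC1D9B, tert(+/-) 5 overlaps wildtype for acot15, and NRIP1 is at 15.50 CPM or more in every wildtype liver and 9.42 CPM or less in every mutant liver.

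Other named genes separated wildtype from the mutants, while the mutant genotypes overlapped. The share of all genes tested that separate in this way is not given here. The separation therefore only describes genes that were picked by the trend. NRIP1, which encodes a co-repressor of nuclear receptors, was at 19.50, 17.89, 18.29 and 15.50 CPM in wildtype livers 1 to 4. In tert(+/-) livers 1, 2, 4 and 5 it was at 8.71, 4.65, 7.95 and 9.42 CPM, and in tert(-/-) livers 2 and 3 at 5.82 and 8.30 CPM. All mutant livers lay below all wildtype livers, and the mutant genotypes overlapped. The log2 step from wildtype to tert(+/-) was -1.21 and that from tert(+/-) to tert(-/-) was -0.12, for a slope of -0.73 ± 0.17 (edgeR adjusted p = 0.999). The livers left out did not repeat it, at 9.23, 9.08 and 10.22 CPM in the wildtype, tert(+/-) and tert(-/-) liver.

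GPR161, whose product is a receptor of the primary cilium that restrains Hedgehog signalling, was higher in every mutant liver than in any wildtype liver. It was at 1.86, 1.37, 0.21 and 0.37 CPM in wildtype livers 1 to 4. In tert(+/-) livers 1, 2, 4 and 5 it was at 6.11, 7.30, 27.78 and 4.27 CPM, and in tert(-/-) livers 2 and 3 at 19.23 and 22.79 CPM. Only tert(+/-) 4 lay above the tert(-/-) livers, and the other tert(+/-) livers lay below both. The step from wildtype to tert(+/-) was 3.54 and the next 0.89, with a slope of 2.48 ± 0.60 (edgeR adjusted p = 0.999, DESeq2 0.000768). This identifier, ENSDARG00000055659, is 1 of 2 that carry the symbol. The other, ENSDARG00000058903, had a slope of -0.26 ± 0.35. In the livers left out GPR161 was at 1.67, 2.32 and 0.57 CPM.

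ILDR2, which encodes an immunoglobulin-like membrane protein, was at 10.86, 10.54, 23.80 and 25.31 CPM in wildtype livers 1 to 4. It was at 2.30, 7.99, 2.58 and 6.04 CPM in tert(+/-) livers 1, 2, 4 and 5, and at 4.62 and 2.74 CPM in tert(-/-) livers 2 and 3. All mutant livers lay below all wildtype livers (slope -1.22 ± 0.30, edgeR adjusted p = 0.999). ONECUT1, a transcription factor of hepatocyte and bile duct development, ran from 0.91 to 3.12 CPM in wildtype, from 0.42 to 0.91 CPM in tert(+/-) and was 0.27 and 0.35 CPM in tert(-/-) livers 2 and 3. The tert(-/-) livers lay below the rest, while the ranges of wildtype and tert(+/-) livers touched at 0.91 CPM (slope -1.23 ± 0.28, edgeR adjusted p = 0.999). The livers left out repeated neither gene. In the wildtype, tert(+/-) and tert(-/-) liver there, ILDR2 was at 4.38, 2.18 and 5.53 CPM and ONECUT1 at 0.06, 0 and 1.34 CPM.

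The remaining named genes passed no edgeR test either. Those with slopes above 0 were arf4b (2.97), zgc:109744 (0.63), cgref1 (0.55), RNF113B (0.53) and TMEM242 (0.37). Those below 0 were ftr51 (-1.24), sema6ca (-0.97), APP (-0.85), GSDME (-0.73), ENSDARG00000074225 (-0.71) and VPS72 (-0.70). For arf4b, an ADP-ribosylation factor of membrane traffic, 1 liver set the value: tert(-/-) 3 was at 29.93 CPM and the other 9 livers at 0.09 to 1.602 CPM, and without it the slope was 0.74. Without tert(-/-) 3 the slope of zgc:109744 was 0.33, and without wildtype 1 that of sema6ca was -0.62.

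SLC5A11 (ENSDARG00000019932), which encodes a sodium-coupled myo-inositol transporter, was the gene past edgeR's adjusted threshold, at very low counts. It had 0 counts in each of the 4 wildtype livers and in tert(+/-) livers 1, 2 and 5, 1 count in tert(+/-) 4, and 23 and 21 counts in tert(-/-) livers 2 and 3. The 44 counts of the tert(-/-) livers were at least 24.1-fold above the level that 3 counts over the 4 wildtype libraries together would give. The gene entered the test only through the tert(-/-) livers. The filter on low counts keeps a gene with enough counts in as many livers, of any genotype, as the smallest group holds, here 2. A gene this low that passed through the tert(-/-) livers alone had to be higher in them, so its call is given as a description. The fitted slope of 5.01 ± 0.56 (edgeR adjusted p = 0.0367) depends on the model at such counts. DESeq2 on the same genes gave an adjusted p of 0.868 and edgeR's robust fit 0.0505.

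SLC5A11 was also high in the livers left out, with 751, 412 and 1179 counts in the wildtype, tert(+/-) and tert(-/-) liver. There intestine genes took 3.479%, 2.347% and 3.484% of counts. In the 10 livers this share was 0.03335% to 0.04378% in wildtype, 0.011% to 0.02881% in tert(+/-), and 0.04776% and 0.01878% in tert(-/-) livers 2 and 3. Of the 13 intestine genes matched, 8 were tested, 4 with a slope above 0 and 4 below (median -0.01), and none at an unadjusted p under 0.05. Over the 8 livers 1 was above 0 and 7 below (median -0.09). The 1 above, the peptide transporter gene SLC15A1, had a slope of 0.90 and an unadjusted edgeR p of 0.0273 there. SLC15A1 was at 3.69 CPM in tert(-/-) 2 and 0.48 CPM in tert(-/-) 3, against 0.52 to 1.37 CPM in wildtype, and without tert(-/-) 2 its slope over the remaining 9 livers was -0.11. Their part in the SLC5A11 result was not tested.

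The 3 livers left out by apoea took no part in choosing the named genes. Their single tert(-/-) liver differed from their wildtype liver in the named direction for 8 of the 20 genes (40%), against 37.1% of all genes tested. All 3 followed the full genotype order for BTD and zgc:109744, 2 of 20 (10%), against 9.75% of all genes. With 1 liver per genotype these are values with no test.

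Genes close to tert on its chromosome are inherited with the mutant allele. A difference at such genes between the chromosome with that allele and the wildtype one cannot be told apart from the number of tert copies. In a RefSeq gene order of another assembly (GRCz12tu), used only to see which genes neighbour each other, 11502 of the tested genes could be placed, and 230 of these (2%) had an unadjusted p under 0.05. On the chromosome of tert, with tert itself set aside, 21 of 462 did (4.55%). Within 100 genes of tert it was 6 of 56 (10.7%), and beyond that on the same chromosome 15 of 406 (3.69%). The window of 100 genes was chosen after these values were seen. The plot of slopes by gene order shows the 6 genes.

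**Figure D4:**
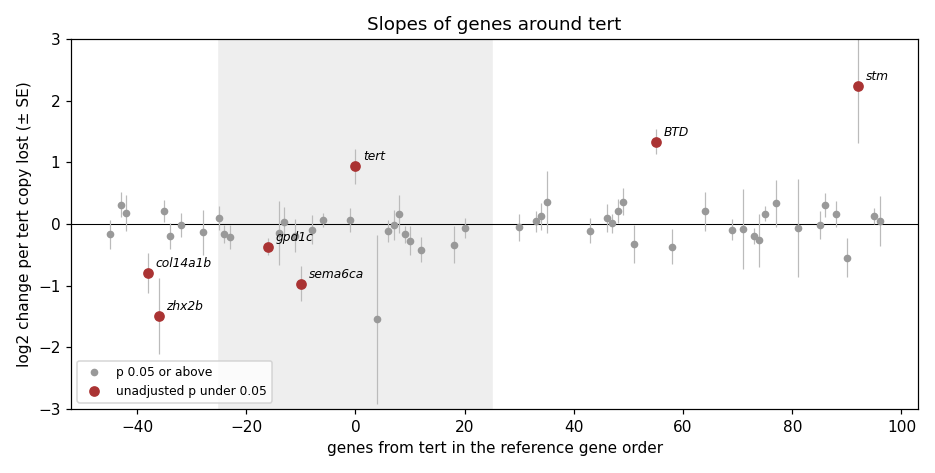
Slope per functional tert copy lost (vertical axis, log2, bars are ± SE) of tested genes by their place relative to tert (horizontal axis, in genes), with the 25 genes on either side shaded. Red points have an unadjusted edgeR p under 0.05, among them BTD at 55 genes, sema6ca at -10 and gpd1c at -16. Of the 20 neighbours tested in the shaded stretch, 15 lie below 0.

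BTD lies 55 genes from tert, and the only other gene of this window above 0 at that threshold was stm, the gene of an otolith protein, at 92 genes (slope 2.24 ± 0.92). The 4 below 0 were sema6ca and gpd1c, at 10 and 16 genes on the other side of tert, and zhx2b and col14a1b, at 36 and 38 genes. Of the 20 tested among the 25 genes on either side, 5 had slopes above 0 and 15 below, with a median of -0.16, against -0.02 for all genes. Over all placed genes 5639 slopes were above 0 and 5863 below, with a median of -0.0055. gpd1c, a glycerol-3-phosphate dehydrogenase gene, was at 23.49, 35.29, 44.49 and 29.53 CPM in wildtype livers 1 to 4. It was at 23.71, 22.58, 25.21 and 18.70 CPM in tert(+/-) livers 1, 2, 4 and 5, and at 20.39 and 21.07 CPM in tert(-/-) livers 2 and 3. Only wildtype 1 fell into the range of the mutants (slope -0.37 ± 0.13). The next smallest p among these neighbours was that of ppp1r18 (slope -0.42 ± 0.21). The median of the neighbours was -0.08 without wildtype 3 or without wildtype 2, and -0.24 without tert(-/-) 3. VPS72 is carried by 2 identifiers, and the reference places a vps72a gene 12 genes from tert; the tables do not say which identifier it is.

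Genes of telomerase assembly and of shelterin, the complex that caps telomeres, mostly had small slopes on the same side of 0. Of 16 tested, 14 had a slope above 0 and 2 below, with a median of 0.25, against 46.6% of all genes above 0. tert was the only member with an unadjusted p under 0.05, 1 of 16 (6.25%, against 2.15% of all genes). terf2ip, the shelterin subunit Rap1, had a slope of 0.46 ± 0.25, and TEN1, of the CST complex that finishes telomere ends, 0.27 ± 0.16. Without tert(-/-) 3 the slope of terf2ip was 0.30, and without tert(-/-) 2 that of TEN1 was 0.13. The 2 below 0 were ctc1 (-0.41 ± 0.33) and acd (-0.24 ± 0.25). In the 8 livers 14 of 16 were again above 0, with a median of 0.19.

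**Figure D5:**
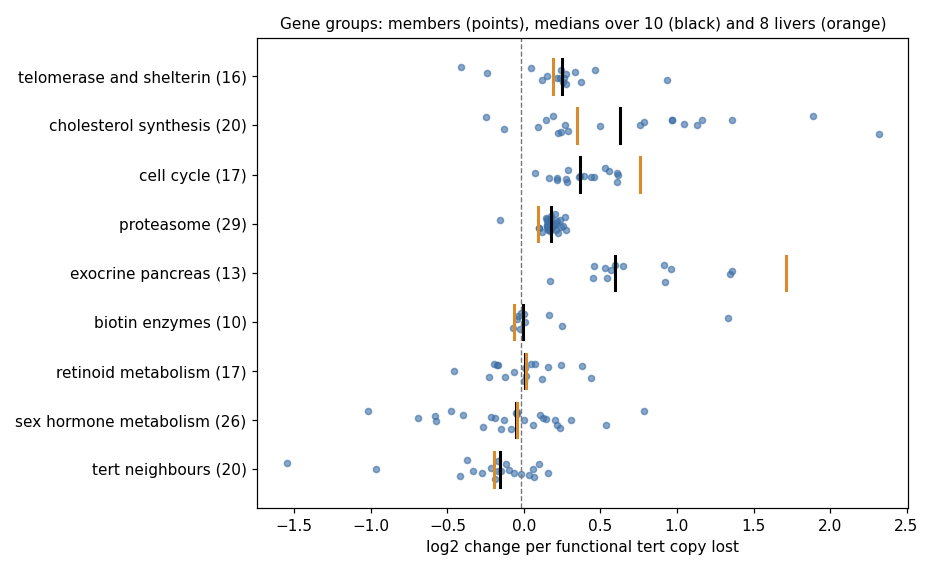
Slopes of the tested members (points, log2 change per functional tert copy lost) of 9 gene groups, with the number tested in brackets, the median over 10 livers in black and over 8 livers in orange. The dashed line is the median of all genes (-0.02). All 17 cell cycle and all 13 exocrine pancreas genes lie above 0 in the 10 livers, and BTD stands apart from the other biotin enzyme genes.

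Cholesterol synthesis genes had slopes above 0 for 18 of 20 tested, against 46.6% of all genes, with a median of 0.63. Only FDPS, farnesyl diphosphate synthase, had an unadjusted p under 0.05 (5%, against 2.15% of all genes). FDPS was at 5.10, 27.96, 15.39 and 16.51 CPM in wildtype livers 1 to 4. It was at 21.37, 19.38, 108.96 and 300.73 CPM in tert(+/-) livers 1, 2, 4 and 5, and at 8.44 and 309.74 CPM in tert(-/-) livers 2 and 3. The high livers were tert(+/-) 4, tert(+/-) 5 and tert(-/-) 3, while tert(-/-) 2 lay below 3 of the wildtype livers. MSMO1, a sterol oxidase, and LSS, lanosterol synthase, were also highest in these 3 livers, with slopes of 1.36 ± 0.64 and 0.97 ± 0.53. The median step of the list was 1.39 from wildtype to tert(+/-) and -0.24 from tert(+/-) to tert(-/-). In the 8 livers 15 of 20 were above 0, with a median of 0.35. There 2 had an unadjusted p under 0.05, against 2.88% of all genes. The median was 0.42 without wildtype 1 and 0.96 without tert(-/-) 2.

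Cell cycle genes had slopes above 0 for all 17 tested, against 46.6% of all genes, with a median of 0.37. None reached an unadjusted p under 0.05 (0%, against 2.15% of all genes). mki67, a marker of dividing cells, was at 1.06, 0.27, 0.28 and 0.64 CPM in wildtype livers 1 to 4. It was at 1.17, 1.16, 1.13 and 2.46 CPM in tert(+/-) livers 1, 2, 4 and 5, and at 0.76 and 1.26 CPM in tert(-/-) livers 2 and 3. Its highest level was in tert(+/-) 5, and the tert(-/-) livers overlapped the wildtype livers. The replication helicase gene MCM7 had a slope of 0.46 ± 0.33 and MCM5 0.37 ± 0.34. The median step was 1.06 from wildtype to tert(+/-) and -0.55 from there to tert(-/-), so the list did not grade with copy number. In the 8 livers 15 of 15 were above 0 (median 0.76), with 3 at an unadjusted p under 0.05, against 2.88% of all genes. Without wildtype 2 or wildtype 3 the median was 0.18 or 0.21, with 14 of 16 above 0, and without tert(-/-) 2 or wildtype 1 it was 0.69 or 0.83.

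Exocrine pancreas genes, which mark pancreatic tissue along the liver, had slopes above 0 for all 13 tested, against 46.6% of all genes. Their median was 0.59, and none had an unadjusted p under 0.05 (0%, against 2.15% of all genes). Their share of counts was 0.04909% in wildtype 1 and 0.001729% to 0.003968% in the other wildtype livers. It was 0.006932% to 0.05117% in tert(+/-) and 0.01937% and 0.01783% in tert(-/-) livers 2 and 3. The elastase genes cela1.3 and CELA1 had slopes of 1.35 ± 0.70 and 1.36 ± 0.78, and amy2a, an amylase gene, 0.93 ± 0.62. Without wildtype 1 the median was 1.73, and in the 8 livers 1.71, with 3 of 13 at an unadjusted p under 0.05 against 2.88% of all genes. There DESeq2 called cela1.3 (slope 2.83, adjusted p = 0.0175). Leaving out wildtype 2, 3 or 4 brought it to 0.31, 0.33 or 0.34, and leaving out tert(-/-) 3 to 0.91.

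Proteasome subunit genes had small slopes on 1 side of 0, with 28 of 29 above 0, against 46.6% of all genes. Their median was 0.17, and none had an unadjusted p under 0.05 (0%, against 2.15% of all genes). PSMD3, PSMB4 and PSMA5 had slopes of 0.27 ± 0.13, 0.28 ± 0.14 and 0.26 ± 0.13. In the 8 livers 28 of 29 were again above 0, with a median of 0.09, and without wildtype 1 it was 0.09.

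Retinoid and sex hormone metabolism, pathways the study followed, showed no common slope in these livers. The study's text describes its zebrafish retinoid findings for brain and skin, from gene set and metabolic model analyses, so the measures differ. Of 17 retinoid genes tested 10 were above 0 and 7 below, with a median of 0.0045, and of 26 sex hormone genes 11 were above and 15 below, with a median of -0.05. None had an unadjusted p under 0.05 (0%). The members with the smallest p were rarab, a retinoic acid receptor (-0.46 ± 0.23), raraa (0.38 ± 0.32) and RDH11, a retinol dehydrogenase (0.44 ± 0.42). For sex hormones they were cyp3a65 (-0.40 ± 0.23), ESR2, an oestrogen receptor (0.53 ± 0.32), and HSD3B7 (0.31 ± 0.19). ESR2 was higher in every mutant liver than in any wildtype liver, with log2 steps of 1.34 and then -0.68. The gap was small, from 71.44 CPM in wildtype 4 to 79.64 CPM in tert(-/-) 2. Since the share of all genes that separate in this way is not given, this only describes ESR2. Its departure from a line had an unadjusted edgeR p of 0.00794 and did not pass after adjustment. In the livers left out ESR2 was at 47.51, 44.61 and 19.93 CPM in the wildtype, tert(+/-) and tert(-/-) liver.

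Short telomeres activate p53. In a joint list of p53 targets and senescence genes, 6 of 14 members had slopes above 0 and 8 below over the 10 livers. Their median was -0.07, with none at an unadjusted p under 0.05. Over the 8 livers the sign turned, with 8 of 13 above 0 and a median of 0.19. There 1 had an unadjusted p under 0.05, against 2.88% of all genes. Without wildtype 1 alone the median was 0.18. Over the 10 livers bbc3 and BAX, which promote cell death, had slopes of 0.86 ± 0.47 and 0.22 ± 0.16, and PHLDA3 one of -0.66 ± 0.53. Without tert(-/-) 3 the slopes of bbc3 and BAX were 0.50 and 0.06. Of fatty acid synthesis genes 8 of 14 were above 0 (median 0.06). Only ME1, malic enzyme, had an unadjusted p under 0.05 (slope 0.69 ± 0.30), 7.14% of the list against 2.15% of all genes. ME1 was at 54.27 CPM in tert(-/-) 2 and 220.96 CPM in tert(-/-) 3, and without the latter its slope was 0.24. Over the 8 livers 3 of the 14 had an unadjusted p under 0.05, against 2.88% of all genes, with 7 slopes above 0 and 7 below. Of 33 lists with a tested member, 28 held no gene at an unadjusted p under 0.05 over the 10 livers and 0 held a gene that edgeR called. Over the 8 livers 18 held none and 15 held at least 1, and edgeR called none there either. For the 15 hepatocyte genes, which mark the main cell type, 7 slopes were above 0 and 8 below, with a median of -0.0039, and over the 8 livers 4 were above and 11 below, with a median of -0.04.

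Whether tert(+/-) livers lay off the line between the other genotypes was asked directly. For this departure edgeR called 0 of 16219 genes (0%), with 370 at an unadjusted p under 0.05 (2.28%), and DESeq2 called 12. For BTD the departure was 0.01 (edgeR adjusted p = 1), for NRIP1 -0.54, for ILDR2 -0.77 and for GPR161 1.33, and none passed.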

How the data were processed

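Gene counts of 13 zebrafish livers were analysed. Per the submitters' processing notes, the tools were bcl2fastq 1.8.4, STAR 2.4.1d and featureCounts 1.4.6-p4 with build GRCz10, whereas the methods of the study name kallisto. The deposited counts are whole numbers of reads per Ensembl gene, not normalised, which the authors made with an unstranded kit (TruSeq RNA v2), so overlapping antisense genes cannot be separated. A deposited RPKM table of the same livers was not used. Groups came from the labels. Livers were kept at apoea below 100 CPM. Genes were filtered with filterByExpr by genotype, scaled with TMM and tested with edgeR 4.0.16 (glmQLFit, glmQLFTest, R 4.3.3) on the number of functional tert copies lost (0, 1, 2), with Benjamini-Hochberg adjustment and a threshold of 0.05. The study's DESeq2 was an alternative (1.42.0), as was limma-trend (3.58.1, prior count of 2). The tert slope used an exact permutation test with a pseudocount of 0.5. Levels in the livers left out were scaled together with the 10. Symbols were found for 26269 of 32105 identifiers. The test was also run on simulated counts in which some genes were given a set change per copy, and its recovery of them is not given here. Named genes were the 10 with the smallest p in each direction (mean log2 CPM of at least 0, with a symbol), every called gene, and, for each list described singly, the 3 of its members at the lowest p. A floor of 3 counts was used for genes at 0, which covers counting error only. The members, lists and tests were chosen with earlier results of these data known. Alternatives were other scalings, filters, tools and thresholds, a mitochondrial covariate, all 13 livers with a term for those left out, and leaving out each liver. A fit without the livers with the highest mitochondrial share was added after seeing the data.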

Additional observations from a re-analysis of the deposited data

Results flagged for a closer look

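In groups of 4 livers, a single liver was looked for whose gap to the nearest other exceeded Dixon's critical share of the group's range. Of 110 groups checked, 17 stood out, and many lie in the same few livers. The critical share is set so that chance picks about 1 in 20 for normally distributed values. Here it was applied to CPM and percent shares without a log scale. Some flags also followed from earlier choices or from zeros. The heart-marked libraries had been marked by a cardiac myosin gene, and SLC5A11 had a single count against 0. The 17 can therefore not be compared with that chance rate.

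Among the named genes, tert(+/-) 4 stood apart from the other tert(+/-) livers for GPR161 (27.78 CPM, next 7.296), VPS72 (3.85 CPM, next 2.323) and SLC5A11 (0.03632 CPM, a single count against 0). tert(+/-) 5 stood apart for APP (11.1 CPM, next 5.266), and wildtype 4 was low for acot17 (0.3668 CPM, next 0.8375).

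Among shares of counts, wildtype 1 stood apart for heart muscle (1.171%), exocrine pancreas (0.04909%), skeletal muscle (0.03898%), cell cycle (0.005809%) and germ cell genes (0.0001517%), and was low for interferon response genes (0.002629%). tert(+/-) 5 stood apart for heart muscle genes (0.9836%). Wildtype 4 stood apart for mitochondrially encoded genes (54.65%). tert(+/-) 4 stood apart for inflammation (0.9882%) and interferon response genes (0.02064%). tert(+/-) 2 was high for hepatocyte genes (27.37%) and low for sterol control genes (0.05429%).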

How the results depend on the processing

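The count of genes with a trend over 10 livers was 1. It was 6 with DESeq2 on the same genes and 11 with DESeq2's default threshold of 0.1. It was 0 with limma-trend, the robust fit, at least 1 CPM in every liver, 8 livers, all 13 livers, a mitochondrial covariate, wildtype against any mutant, and without the 2 livers with the highest mitochondrial share. Leaving out each liver gave 0 to 1, and the call of SLC5A11 held only without tert(+/-) 5. Over 8 livers the count was 0, with DESeq2 6 and 16 at its default, and for the departure from a line 0, with DESeq2 12. The tert slope of 0.83 ran from 0.67 to 0.96 when each liver was left out, with an exact permutation p of 0.019 or less. Among the genes named for their trend or their list, the slope of SLC15A1 changed sign. It ran from -0.11 (without tert(-/-) 2) to 0.90 when each liver was left out, and was -0.17 without the livers of high mitochondrial share. The slopes of apoea and MYH7, used to choose and mark livers, also changed sign when each liver was left out, from -0.23 to 0.98 and from -9.96 to 8.81. Of the 33 genes named for their list only, 21 moved by over 1.5 times when some single liver was left out. BTD ran from 1.11 to 1.499 when each liver was left out. Only 2 tert(-/-) livers, 1 of them with 32.83% mitochondrial counts, set the end of every trend, and at this spread small changes could not be detected. No paired analysis was possible because the labels give each fish its own number and share none between genotypes.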

Other observations

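Another stretch of the gene order held 2 named genes that could be placed, noticed after the values were seen. ILDR2 and ENSDARG00000074225, both lower with copies lost, lie 12 genes apart on a chromosome other than that of tert. Of 20 other tested genes within 25 of ILDR2, 2 had an unadjusted p under 0.05 (10%, against 2% of all placed genes). They were ENSDARG00000074225 (slope -0.71 ± 0.15) and KDM6A (-0.40 ± 0.16). The stretch was noticed through ENSDARG00000074225, so its place in that count was fixed in advance. Only KDM6A was not used to pick the stretch, and the share is a description. The reference also places gpr161b 8 genes and appb 28 genes from ILDR2, but its tables do not say which identifiers of GPR161 and APP these are. What the stretch shares with the trend was not tested.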
